A study of Bos taurus with 16 samples.

Results

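Glycolysis was followed here through 10 enzyme genes: HK2, GPI, ALDOA, ALDOC, TPI1, PGK1, PGAM1, ENO1, LDHA and LDHB. All array probe sets annotated to exactly 1 of these symbols were taken, without regard to their signal. This gave 11 of the 24016 non-control probe sets, for 9 of the 10 genes, with 3 probe sets for LDHA and 1 for each of the others. These are 9 of the 9155 genes that such probe sets name. HK2, a hexokinase that phosphorylates incoming glucose, had no probe set named in the annotation used here, so the entry step carried by that gene was not analysed here.

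RNA was measured on Affymetrix bovine arrays in 16 pools from superovulated cows. The cows numbered 49 and all had received the superovulation treatment, so no group shows an unstimulated cycle. Subclinical endometritis (SE) is an inflamed uterine lining in a cow that looks healthy; the label SE was given to cows with a cytobrush count of polymorphonuclear cells above 0, and healthy endometrium (HE) to those with a count of 0. Endometrium, brushed from the uterine lining, comprised 3 SE and 2 HE pools of day 7, taken just before the uterus was flushed, and 3 SE and 3 HE pools of day 0, taken 2 h before insemination. The blastocysts flushed on day 7 were pooled by 10, into 3 pools from SE donors and 2 pools from HE donors. Each cow was brushed on both days, and the sources used here do not say which cows entered which pool. Replicates are pools, so each p-value below measures the spread between pools and not between cows.

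Glycolysis splits glucose into pyruvate in the cytosol and yields ATP, and lactate dehydrogenase then interconverts pyruvate and lactate. GPI isomerises glucose 6-phosphate to fructose 6-phosphate, the aldolases ALDOA and ALDOC cleave fructose 1,6-bisphosphate, and TPI1 interconverts the resulting triose phosphates. PGK1 makes ATP from 1,3-bisphosphoglycerate, PGAM1 moves the remaining phosphate, and ENO1 forms phosphoenolpyruvate. The ruminant endometrium secretes glucose and other substrates into the uterine lumen, and the blastocyst is known for a marked increase in glucose use over earlier cleavage stages.

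All values are log2 signals, in which 1 unit is a doubling. Array medians were 4.18 to 4.30 in endometrium and 3.08 to 3.12 in blastocysts, and levels were not compared between the tissues. Probe sets were tested in a tissue where 2 or more of its arrays had a signal above 4, a filter that kept 11 of the 11 probe sets in endometrium and 10 of the 11 in blastocysts. The endometrial arrays carried signal above 4 for the epithelial markers EPCAM, CDH1, KRT18, KRT19, CLDN3, CLDN4 and MUC1 on all 11 arrays, whereas the KRT8 probe set was below 4 on all 11. The blastocyst arrays carried the embryonic markers POU5F1, SOX2, GATA6, IFNT2 and PAG2 above 4 on all 5 arrays, and the stromal markers VIM, COL3A1, DCN and LUM above 4 on 0 of 5. Of the other stromal markers, COL1A2 and 1 PDGFRA probe set were above 4 on all 5 blastocyst arrays. The day 0 SE replicate 2 stood somewhat apart, with a mean correlation of 0.961 with the other arrays of its day, against 0.975 to 0.979 for the other day 0 arrays. The counts of glycolytic probe sets called between days in SE endometrium were the same without it, 4 higher and 3 lower.

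**Figure D1:**
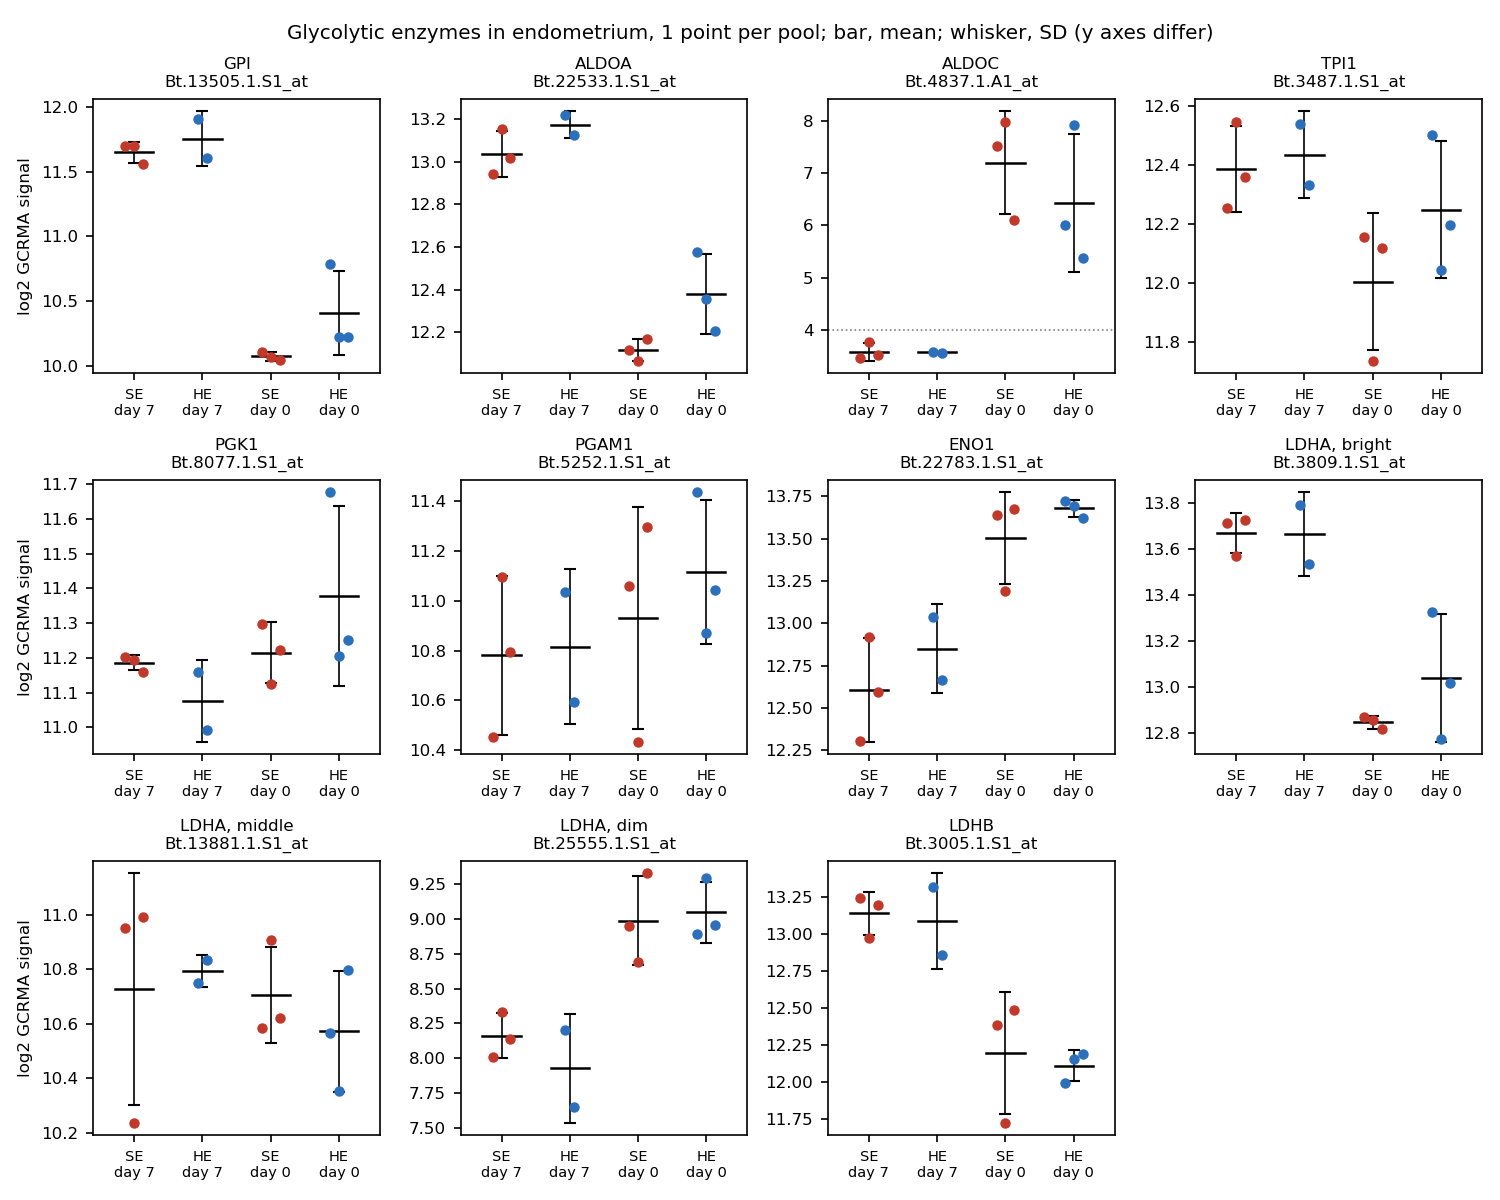
Log2 signal (y axes, which differ between panels) of the 11 glycolytic probe sets in the 4 endometrium groups, with 1 point per pool, a bar at the mean and whiskers of 1 SD. GPI and ALDOA lie higher on day 7 than on day 0 in SE and HE alike, ENO1 lies lower, ALDOC is below 4 (dotted line) on all day 7 arrays, and the 3 LDHA panels differ from each other in direction.

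The first question was how the enzymes stood in endometrium on day 7, when an embryo would be present, relative to day 0. By limma, transcripts of GPI, ALDOA and LDHB were higher on day 7, those of ALDOC and ENO1 were lower, and LDHA gave opposite answers from different probe sets. TPI1, PGK1 and PGAM1 did not pass the test. By limma, 7 of the 11 probe sets were called in SE endometrium at an adjusted p under 0.05, 4 higher and 3 lower. Calls were common over the whole array in this comparison: 50.1% of all kept probe sets were called in SE, 26% higher and 24.1% lower. In HE endometrium 7 of the 11 were also called, 4 higher and 3 lower, where 45% of all kept probe sets were called, 21.8% higher and 23.2% lower. The days did not overlap for 8 of the 11 probe sets in SE, 5 higher and 3 lower, and for 8 of the 11 in HE, 4 higher and 4 lower. Of all kept probe sets 57.9% did not overlap in SE, 29.3% higher and 28.6% lower, and 68.4% in HE, 32.2% higher and 36.1% lower. ALDOC passed the filter through day 0 alone, so its call could only be lower. Leaving ALDOC out, 6 of 10 were called in SE and 6 of 10 in HE, 4 higher and 2 lower in each. The 7 called probe sets were the same in SE and HE and had the same direction, which for ALDOC the filter had set in both. Over all kept probe sets 38.6% were called in both with the same direction. The median change over the 11 probe sets was 0.022 in SE and 0.19 in HE, against 0.0092 and -0.033 over all kept probe sets.

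GPI, the isomerase at the head of the pathway, had the largest rise of the 11 probe sets in SE and in HE. Its signal was 11.70, 11.70 and 11.56 in day 7 SE pools, against 10.11, 10.07 and 10.04 in day 0 SE pools. In HE it was 11.90 and 11.60 on day 7, against 10.78, 10.22 and 10.22 on day 0. All 5 day 7 pools lay above all 6 day 0 pools. The change was 1.58 in SE (standard error 0.17, 2.98-fold, limma adjusted p = 4.05e-05) and 1.34 in HE (standard error 0.19, 2.54-fold, limma adjusted p = 0.000321).

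The aldolases moved in opposite directions. ALDOA, the widely expressed aldolase of muscle and most other tissues, had 12.94, 13.15 and 13.02 in day 7 SE pools, against 12.12, 12.07 and 12.17 in day 0 SE pools. It had 13.22 and 13.13 in day 7 HE pools, against 12.58, 12.35 and 12.21 in day 0 HE pools. The days did not overlap in either status, and ALDOA rose by 0.92 in SE (standard error 0.13, limma adjusted p = 0.000296) and by 0.79 in HE (standard error 0.15, limma adjusted p = 0.00182). ALDOC, the aldolase best known from brain, was readable on day 0 alone. It had 3.45, 3.77 and 3.51 in day 7 SE pools, against 7.53, 7.99 and 6.10 in day 0 SE pools. In HE pools it had 3.56 and 3.56 on day 7, against 6.01, 7.93 and 5.38 on day 0. Every day 7 value was below the filter level of 4, so ALDOC entered the test through its day 0 signal, its change is a bound, and its adjusted p is no support for a direction that the filter had set. Set against a signal of 4, ALDOC was at least 9.23-fold lower on day 7 in SE (limma adjusted p = 0.000805) and at least 5.43-fold lower in HE (limma adjusted p = 0.007). The day 0 values of ALDOC spread widely, with an SD of 0.99 in SE and 1.32 in HE (n = 3 each).

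The middle of the pathway was flatter. TPI1 had 12.26, 12.55 and 12.36 in day 7 SE pools, against 12.16, 11.74 and 12.12 in day 0 SE pools, and 12.54 and 12.33 in day 7 HE pools, against 12.50, 12.05 and 12.20 in day 0 HE pools. The SE days did not overlap and the HE days did. The difference was 0.38 in SE (standard error 0.17, limma adjusted p = 0.0905), with a 95% interval of -0.0029 to 0.77, and 0.19 in HE (limma adjusted p = 0.462). PGK1, an ATP-producing step, had 11.20, 11.20 and 11.16 in day 7 SE pools, against 11.30, 11.12 and 11.22 in day 0 SE pools. In HE pools PGK1 had 11.16 and 10.99 on day 7, against 11.68, 11.21 and 11.25 on day 0. The SE days overlapped, and the HE days did not, with day 7 below. The HE difference was -0.30 (limma adjusted p = 0.168). The 95% interval of the PGK1 difference was -0.36 to 0.30 in SE and -0.67 to 0.069 in HE. PGAM1, the mutase, had the wider pools, 10.45 to 11.09 in day 7 SE, against 10.43 to 11.30 in day 0 SE, with an interval of -0.74 to 0.44. In HE its interval was -0.96 to 0.36. Neither passed the test, and these intervals show which changes remain possible.

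ENO1, the enolase of most non-neuronal and non-muscle tissues, was lower on day 7. It had 12.31, 12.92 and 12.60 in day 7 SE pools, against 13.64, 13.19 and 13.68 in day 0 SE pools. It had 13.04 and 12.66 in day 7 HE pools, against 13.72, 13.69 and 13.62 in day 0 HE pools. The highest day 7 pool lay under the lowest day 0 pool. The change was -0.90 in SE (standard error 0.20, limma adjusted p = 0.00363) and -0.83 in HE (standard error 0.22, limma adjusted p = 0.0114). The HE call was lost without day 7 HE replicate 2, where the change was -0.64 with a limma adjusted p of 0.103.

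LDHB, the lactate dehydrogenase subunit prominent in heart, had 13.24, 12.97 and 13.19 in day 7 SE pools, against 12.38, 11.72 and 12.48 in day 0 SE pools. It had 13.31 and 12.86 in day 7 HE pools, against 11.99, 12.15 and 12.18 in day 0 HE pools. The days were separate in both statuses. LDHB rose by 0.94 in SE (standard error 0.21, limma adjusted p = 0.00439) and by 0.98 in HE (standard error 0.24, limma adjusted p = 0.00756), and the HE call was lost without day 7 HE replicate 1, where the change was 0.75 with an adjusted p of 0.0743.

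LDHA, the subunit prominent in skeletal muscle, has no single direction in these data. Its 3 probe sets are called bright, middle and dim here by their signal in endometrium. The bright one had 13.71, 13.57 and 13.73 in day 7 SE pools, against 12.87, 12.86 and 12.81 in day 0 SE pools, and 13.79 and 13.53 in day 7 HE pools, against 13.32, 12.77 and 13.02 in day 0 HE pools. The dim one had 8.01, 8.33 and 8.14 in day 7 SE pools, against 8.95, 8.69 and 9.33 in day 0 SE pools, and 8.21 and 7.65 in day 7 HE pools, against 8.89, 9.30 and 8.96 in day 0 HE pools. Each of these probe sets kept the days apart, the bright one with day 7 above and the dim one with day 7 below. The bright probe set rose by 0.82 in SE (limma adjusted p = 0.00165) and by 0.62 in HE (limma adjusted p = 0.0155), and the dim probe set changed by -0.83 in SE (limma adjusted p = 0.00864) and by -1.12 in HE (limma adjusted p = 0.00362). The middle LDHA probe set had overlapping days, with differences of 0.022 in SE and 0.22 in HE. Averaged over its probe sets, LDHA differed by 0.0057 in SE (limma adjusted p = 0.974) and by -0.091 in HE (limma adjusted p = 0.629). In HE the call of the bright probe set was lost without day 7 HE replicate 1 (0.50, limma adjusted p = 0.114) and when only the 2 HE groups were fitted (limma adjusted p = 0.0524).

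**Figure D2:**
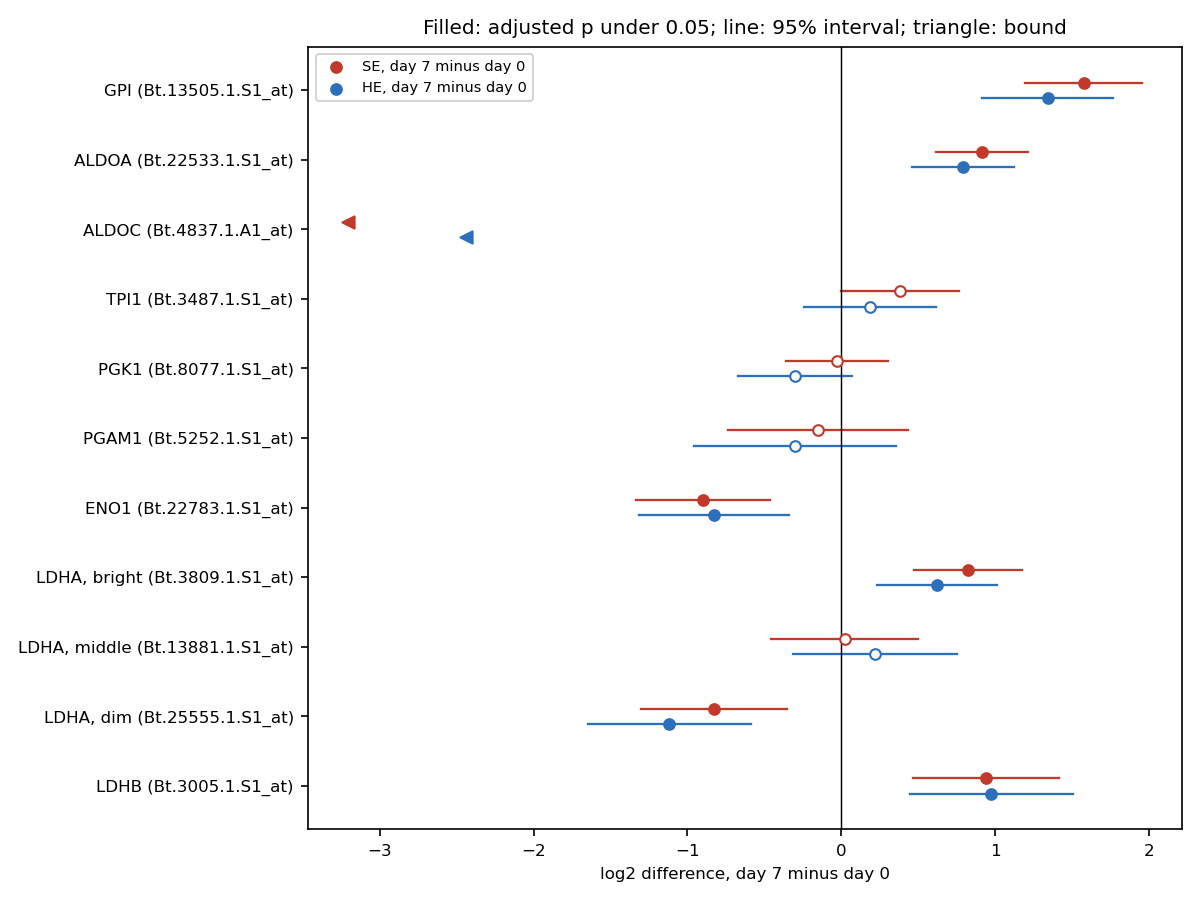
Change between day 7 and day 0 (x axis, log2 difference, day 7 minus day 0) for each glycolytic probe set in SE and HE endometrium, with 95% intervals and filled points where the limma adjusted p was under 0.05. The 6 probe sets with filled points are the same in both statuses, with the highest value, 1.58, for GPI in SE. The ALDOC triangles stand at the bounds that a day 7 signal of 4 gives, with no interval.

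The day effect on the 11 probe sets was set between SE and HE by the interaction of status and day. By limma 0 of 11 were called, and 0 of 11 had an unadjusted p under 0.05. Over all kept probe sets 0% were called and 3.92% had an unadjusted p under 0.05. The interaction of GPI was 0.23 with a 95% interval of -0.34 to 0.81, and that of ALDOA was 0.12 with an interval of -0.32 to 0.57. With 1 array left out the GPI interaction ran from 0.048 (without day 0 HE replicate 1) to 0.38 (without day 7 HE replicate 1). The ALDOA interaction ran from 0.025 (without day 0 HE replicate 1) to 0.21 (without day 0 HE replicate 3). For ALDOC, below the filter level on day 7 in both statuses, no interaction is given.

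Epithelial markers differed between days as well, and neutrophil markers less clearly. Epithelial markers were lower on day 7, with 6 of 7 tested genes called lower and 1 higher in SE and with 4 lower and 1 higher in HE. Of all kept probe sets 24.1% were called lower in SE and 23.2% in HE. The mean of these 7 markers was 10.16 to 10.21 in day 7 SE pools and 10.45 to 10.48 in day 7 HE pools, against 11.39 to 11.82 in day 0 SE pools and 11.25 to 11.42 in day 0 HE pools. Of 7 stromal fibroblast markers, 0 were called by limma in either status, with 1 in SE and 0 in HE at an unadjusted p under 0.05. The mean of 3 neutrophil markers was 6.04 to 7.61 in day 7 SE pools and 5.44 to 7.59 in day 7 HE pools, against 9.39 to 12.38 in day 0 SE pools and 6.75 to 9.75 in day 0 HE pools. The HE pools thus overlapped between days. Limma called 1 of the 3 lower in SE and 1 in HE, with 3 in SE and 1 in HE at an unadjusted p under 0.05. The array's GAPDH control, signal of the 3' probe set minus that of the 5' one, was 0.22 to 0.57 in day 7 SE pools and 0.27 to 0.39 in day 7 HE pools, against 0.026 to 0.58 in day 0 SE pools and 0.056 to 0.14 in day 0 HE pools, overlapping between days in SE and not in HE. The actin control went the other way without overlap, at -0.477 to -0.441 in day 7 SE pools, against -0.433 to -0.418 in day 0 SE pools. In HE pools it was -0.447 to -0.443 on day 7, against -0.442 to -0.343 on day 0. The cyclophilin and EIF4E controls overlapped between days in both statuses. The part of these markers or of these controls in the changes of the glycolytic genes was not tested. In such bulk samples fewer cells of a type and less RNA per cell cannot be told apart.

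Glycolytic enzymes outside the 10 genes were compared over the same days. Of all kept probe sets 50.1% were called between days in SE and 45% in HE, and the counts on this and the lists that follow are given beside that share as descriptions. Of 15 listed genes 5 were tested, with 1 higher and 3 lower in SE and 1 higher and 1 lower in HE, and the median change was -0.44 in SE and -0.27 in HE. PFKM and PFKL encode phosphofructokinase, the committed step of glycolysis, and stood out in opposite directions. PFKM, the muscle form, had on its dimmer probe set 6.92, 6.13 and 6.31 in day 7 SE pools, against 2.76, 2.72 and 2.67 in day 0 SE pools, and 6.38 and 5.61 in day 7 HE pools, against 2.70, 2.88 and 2.71 in day 0 HE pools. It passed the filter through day 7 alone, which set its direction, and it was at least 5.47-fold higher in SE (limma adjusted p = 1.28e-06) and at least 3.99-fold higher in HE (limma adjusted p = 9.17e-06). PFKL, the liver form, had 8.82, 9.52 and 8.92 in day 7 SE pools, against 10.33, 9.98 and 10.03 in day 0 SE pools, and changed by -1.03 (limma adjusted p = 0.00224). In HE PFKL changed by -0.76 (limma adjusted p = 0.0214), a call lost without day 0 HE replicate 1 (-0.71, adjusted p = 0.0621), day 0 HE replicate 2 (-0.73, adjusted p = 0.0569) or day 7 HE replicate 2 (-0.59, adjusted p = 0.158).

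PKM, which makes pyruvate in the last step, had 9.74, 9.78 and 9.14 in day 7 SE pools, against 10.17, 10.08 and 10.06 in day 0 SE pools, a change of -0.55 (limma adjusted p = 0.0235). The PKM call was lost without day 0 SE replicate 1 (-0.52, adjusted p = 0.0662) or day 7 SE replicate 3 (-0.35, adjusted p = 0.0705), and in HE PKM gave -0.27 (limma adjusted p = 0.296). GAPDH, which oxidises glyceraldehyde 3-phosphate, gave -0.44 in SE (limma adjusted p = 0.0451) and -0.46 in HE (limma adjusted p = 0.0638). HK1, a hexokinase encoded by a gene other than HK2, gave 0.23 in SE (limma adjusted p = 0.346) and 0.10 in HE (limma adjusted p = 0.724). The count of lower genes on this list was 1 in SE without day 0 SE replicate 1 or day 7 SE replicate 3. In HE it was 0 without day 0 HE replicate 1, day 0 HE replicate 2 or day 7 HE replicate 2, and 2 without day 0 SE replicate 2. The 1 higher count in HE, that of PFKM by its brighter probe set, was 0 without day 7 HE replicate 1 or replicate 2. On that brighter probe set PFKM rose by 1.99 in SE (limma adjusted p = 0.000626) and by 1.28 in HE (limma adjusted p = 0.0165).

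Among regulators of glycolysis and of pyruvate entry into mitochondria, 13 of 17 listed genes were tested. In SE 7 were higher and 1 was lower on day 7, and in HE 6 were higher and 1 was lower, with medians of 0.57 and 0.48, where 26% of all kept probe sets were called higher in SE and 21.8% in HE. PFKFB2, a bifunctional enzyme that sets the level of fructose 2,6-bisphosphate, the activator of phosphofructokinase, had the largest rise. On its brightest probe set it had 10.92, 11.01 and 11.23 in day 7 SE pools, against 5.31, 5.98 and 5.98 in day 0 SE pools, and 10.94 and 11.70 in day 7 HE pools, against 5.47, 5.85 and 6.89 in day 0 HE pools. PFKFB2 rose by 5.30 in SE (limma adjusted p = 1.89e-06) and by 5.25 in HE (limma adjusted p = 5.93e-06). Its other 2 probe sets were also called higher in both. They averaged below the filter level on day 0 and were kept through their day 7 signal, so these calls add no support for the direction. PDK3, a kinase that switches pyruvate dehydrogenase off, had 3.66, 5.55 and 4.85 in day 7 SE pools, against 8.99, 8.97 and 9.11 in day 0 SE pools, and 4.89 and 5.47 in day 7 HE pools, against 9.61, 9.66 and 9.17 in day 0 HE pools. The PDK3 change was -4.33 in SE (limma adjusted p = 1.31e-05) and -4.30 in HE (limma adjusted p = 3.93e-05). The other genes counted higher in SE were PDK2, another such kinase, the pyruvate dehydrogenase components PDHB, PDHX, DLAT and DLD, and MPC1, a subunit of the mitochondrial pyruvate carrier, with rises of 0.57, 0.80, 0.72, 1.18, 0.93 and 1.12 in that order. They are named here after their values had been seen. In HE the list without PDHB gave the 6 higher genes, a count that was 3 without either day 7 HE replicate 1 or day 7 HE replicate 2. The 1 lower gene in HE became 2 without day 0 SE replicate 2 or replicate 3.

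Of 13 listed transport genes 10 had a probe set and 6 were tested, with 1 higher and 3 lower in SE and 1 higher and 2 lower in HE. SLC16A1, a carrier of lactate and pyruvate across the plasma membrane, had 2.59, 2.54 and 2.57 in day 7 SE pools, against 7.57, 4.95 and 7.50 in day 0 SE pools. It had 2.54 and 2.55 in day 7 HE pools, against 9.10, 7.68 and 8.20 in day 0 HE pools. Its day 7 signal was below the filter level in every pool, so it was tested through day 0 alone, which set its direction, and it was at least 6.39-fold lower in SE (limma adjusted p = 0.000351) and at least 20.1-fold lower in HE (limma adjusted p = 0.000104). SLC16A3, a lactate exporter, changed by -1.54 in HE (limma adjusted p = 0.00282). The same probe set was called lower in SE, with a change of -1.01 to -0.61 with 1 array left out. A further SLC16A3 probe set was not called in SE (limma adjusted p = 0.333) or HE (limma adjusted p = 0.129). SLC5A1, also on this list, was at least 1.45-fold lower in SE (limma adjusted p = 0.0212). It averaged below the filter level on day 7, so the filter favoured that direction. SLC2A1, the basal glucose transporter, which falls outside the naming rule, gave -0.21 in SE (limma adjusted p = 0.471) and 0.15 in HE (limma adjusted p = 0.664). The 1 higher count, that of BSG, a chaperone of lactate carriers, was 0 in SE without day 0 SE replicate 1 or 3 or any of the 3 day 7 SE replicates, and 0 in HE without day 7 HE replicate 2. The 3 lower calls in SE were 1 without day 0 SE replicate 3 or day 7 SE replicate 2.

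On routes that branch from glycolysis the share of genes called was not above that of all kept probe sets, 50.1% in SE and 45% in HE, except in gluconeogenesis, with 3 of 4 genes. FBP1, described below, is among those 3 with a direction that the filter set. Glycogen and fructose metabolism had 7 of 13 genes tested, 3 higher and 0 lower in SE and 2 higher and 0 lower in HE, with 4 at an unadjusted p under 0.05 by limma in each. These counts take 1 probe set per gene. A PGM1 probe set outside them was called lower in both statuses. With 1 array left out its change ran from -1.02 to -0.60 in SE and from -0.84 to -0.69 in HE. PYGL, the liver glycogen phosphorylase, had 9.92, 9.65 and 9.29 in day 7 SE pools, against 5.21, 6.34 and 5.53 in day 0 SE pools. It had 9.69 and 10.00 in day 7 HE pools, against 5.54, 5.30 and 6.02 in day 0 HE pools. PYGL rose by 3.93 in SE (limma adjusted p = 4.18e-06) and by 4.22 in HE (limma adjusted p = 7.98e-06). KHK, which phosphorylates fructose, was below the filter level on average on day 0 and was at least 2.44-fold higher in SE (limma adjusted p = 1.05e-05) and at least 1.34-fold higher in HE (limma adjusted p = 0.000362). KHK passed the filter mainly through day 7, which set its direction. Neither its adjusted p nor a count of higher genes that includes it is support for that direction. The 0 lower genes in HE became 1 without day 7 SE replicate 3.

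The pentose phosphate pathway, which makes NADPH and ribose, had 6 of 7 genes tested, with 0 higher and 2 lower in each status. TKT, its transketolase, changed by -1.12 in SE (limma adjusted p = 0.000241) and by -1.20 in HE (limma adjusted p = 0.000404). RPIA, which forms ribose 5-phosphate, changed by -0.81 in SE (limma adjusted p = 0.00624) and by -1.64 in HE (limma adjusted p = 0.0002) on its brighter probe set. Gluconeogenesis had 4 of 8 genes tested, 1 higher and 2 lower in each status. PCK2, the mitochondrial enzyme that makes phosphoenolpyruvate from oxaloacetate, changed by -1.12 in SE (limma adjusted p = 0.00524) and by -1.21 in HE (limma adjusted p = 0.0072), and the HE call was lost without day 7 HE replicate 2 (-1.05, adjusted p = 0.0616), which left 1 lower gene. FBP1, fructose 1,6-bisphosphatase, was below the filter level on average on day 7 and at least 1.34-fold lower in SE (limma adjusted p = 4.14e-05) and at least 1.67-fold lower in HE (limma adjusted p = 0.000287). FBP1 passed the filter mainly through day 0, which set its direction, so its adjusted p is no support for that direction. PC, pyruvate carboxylase, rose by 2.56 in HE (limma adjusted p = 0.00656). In SE the PC call (1.64, limma adjusted p = 0.0287) was lost without any of the day 7 SE replicates 1, 2 or 3 or without day 0 SE replicate 1 or 3, with adjusted p from 0.0546 to 0.102.

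Hypoxia response genes other than those of glycolysis did not move one way. Of 17 listed genes 13 were tested, and 4 were higher and 5 lower in SE and likewise in HE, with medians of -0.042 and -0.10. NDRG1, a stress and hypoxia response gene, changed by -3.93 in SE (limma adjusted p = 2.25e-05) and by -3.61 in HE (limma adjusted p = 0.000112). ADM, the vasodilator peptide adrenomedullin, changed by -3.84 in SE (limma adjusted p = 4.16e-05) and by -4.60 in HE (limma adjusted p = 3.63e-05). P4HA2, a collagen prolyl hydroxylase subunit, changed by -2.43 in SE (limma adjusted p = 1.49e-05) and by -2.39 in HE (limma adjusted p = 4.7e-05). Higher were EPAS1, a hypoxia-inducible factor subunit, by 2.19 on its dimmer probe set in SE (limma adjusted p = 0.00584), and EGLN1, an oxygen-sensing prolyl hydroxylase, by 1.56 in HE (limma adjusted p = 0.00029). The 4 higher genes in HE were 2 without day 7 HE replicate 2.

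**Figure D3:**
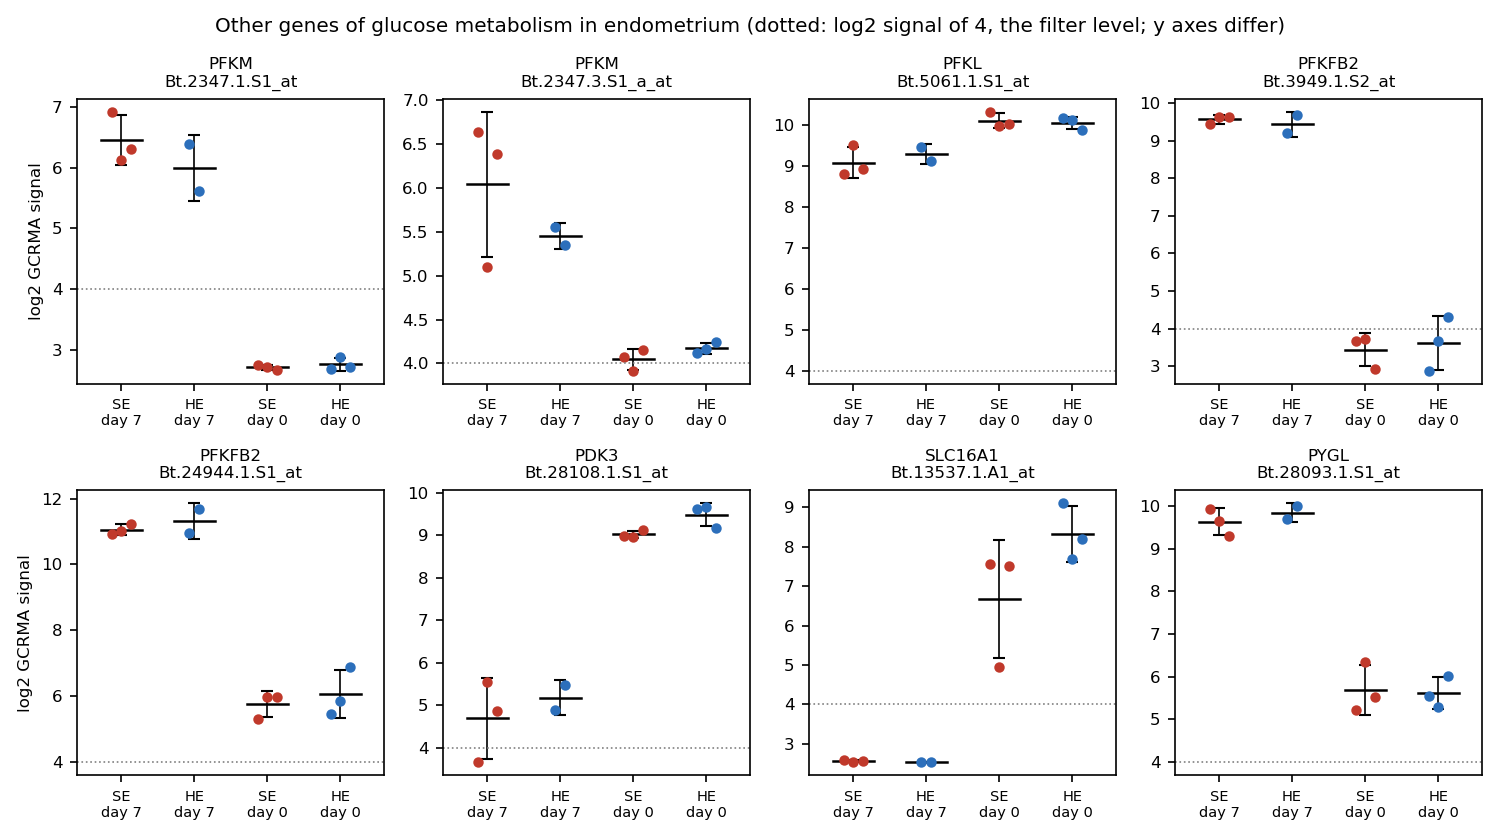
Log2 signal (y axes, which differ between panels) of 8 probe sets for other genes of glucose metabolism in the 4 endometrium groups, with 1 point per pool, a bar at the mean and whiskers of 1 SD. PFKM, PFKFB2 and PYGL lie higher on day 7, while PFKL, PDK3 and SLC16A1 lie lower, and SLC16A1 is under the filter level of 4 (dotted line) in all day 7 pools.

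The second question was whether SE endometrium differed from HE endometrium at the time of insemination. On day 0 limma called 0 of the 11 probe sets, and 0 of 11 had an unadjusted p under 0.05. Over all kept probe sets 0.0224% were called and 7.6% had an unadjusted p under 0.05. GPI and ALDOA were the 2 probe sets whose groups did not overlap, both lower in SE, while 9.24% of all kept probe sets did not overlap with SE lower. GPI had 10.11, 10.07 and 10.04 in SE pools, against 10.78, 10.22 and 10.22 in HE pools, and the difference was -0.34 with a 95% interval of -0.72 to 0.044 (limma adjusted p = 0.685). The HE pool at 10.78 stood well above the other 2 HE pools. Without that pool, day 0 HE replicate 1, the GPI difference was -0.15. ALDOA had 12.12, 12.07 and 12.17 in SE pools, against 12.58, 12.35 and 12.21 in HE pools, a difference of -0.26 with an interval of -0.56 to 0.038 (limma adjusted p = 0.685). ALDOC had the widest interval, -0.61 to 2.14, around a difference of 0.77. With 1 pool left out this ran from 0.24 (without day 0 HE replicate 3) to 1.51 (without day 0 HE replicate 2), and was 0.38 without day 0 SE replicate 2 and 1.32 without day 0 SE replicate 3. The other 8 probe sets had differences of -0.24 for TPI1 to 0.13 for the middle LDHA probe set, with overlapping groups. Over the 11 probe sets 8 differences were below 0 and the median was -0.18, against -0.063 over all kept probe sets. Neutrophil markers averaged 9.39 to 12.38 in SE pools and 6.75 to 9.75 in HE pools, and since the groups were formed by the polymorphonuclear cell count, this is no independent finding. The mean of 3 ciliated cell markers was 6.96 to 8.30 in SE pools and 5.85 to 6.64 in HE pools, without overlap; limma called 0 of the 3, and 3 of 3 had an unadjusted p under 0.05, all higher in SE. The mean of 7 stromal markers was 8.14 to 9.39 in SE pools and 7.31 to 8.83 in HE pools, with 0 called and 1 at an unadjusted p under 0.05. The part of these markers in the differences was not tested.

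On day 7 limma called 0 of the 11 probe sets between SE and HE endometrium, and 0 of 11 had an unadjusted p under 0.05. Over all kept probe sets 0% were called and 3.55% had an unadjusted p under 0.05. PGK1 was the 1 probe set without overlap, with 11.20, 11.20 and 11.16 in SE pools, against 11.16 and 10.99 in HE pools, and 7.93% of all kept probe sets did not overlap with SE higher. The PGK1 difference was 0.11 with a 95% interval of -0.26 to 0.48, and the nearest SE and HE pools were equal to 2 decimals. ENO1 had the largest difference, -0.24 with an interval of -0.73 to 0.25. With 1 pool left out it was -0.057 without day 7 HE replicate 1, -0.43 without day 7 HE replicate 2, -0.093 without day 7 SE replicate 1 and -0.40 without day 7 SE replicate 2. For ALDOA the interval was -0.47 to 0.20, for GPI -0.53 to 0.32 and for the bright LDHA probe set -0.39 to 0.40. With 3 and 2 pools, differences inside these intervals remain possible. Over the 7 other lists of glucose metabolism and hypoxia genes, 0 genes were called by limma on either day, with 2 genes at an unadjusted p under 0.05 on day 0 and 3 on day 7.

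Among the 4 endometrium groups the order of levels followed the day for the 7 called probe sets. GPI and ALDOA ran from HE day 7 over SE day 7 and HE day 0 to SE day 0, with the day 7 groups overlapping each other. LDHB and the bright LDHA probe set ran with the day 7 groups above the day 0 groups and with statuses overlapping on each day. ALDOC, ENO1 and the dim LDHA probe set had the day 0 groups on top, again with statuses overlapping within a day. PGK1 ran from HE day 0 over SE day 0 and SE day 7, which overlapped in turn, to HE day 7, which did not overlap SE day 7. For TPI1, PGAM1 and the middle LDHA probe set all neighbours in the order overlapped.

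The third question was whether blastocysts differed by the status of their donors. Of the 10 probe sets tested, limma called 0, and 0 had an unadjusted p under 0.05. Over all kept probe sets in blastocysts 0% were called and 9.34% had an unadjusted p under 0.05. The bright LDHA probe set was the 1 probe set whose groups did not overlap, while 12.4% of all kept probe sets did not overlap with SE higher. It had 11.60, 11.72 and 12.05 in blastocysts of SE donors, against 11.40 and 11.44 in those of HE donors, and the difference was 0.37 with a 95% interval of -0.10 to 0.85 (limma adjusted p = 0.59). ENO1 had 11.55, 11.67 and 10.59 in blastocysts of SE donors, against 10.38 and 10.83 in those of HE donors. The third SE pool lay between the HE pools, and the ENO1 difference of 0.67 had an interval of -0.40 to 1.74 and was 1.01 without that pool. GPI, ALDOA and LDHB had the narrowest intervals, -0.41 to 0.22 for GPI, -0.39 to 0.32 for ALDOA and -0.61 to 0.25 for LDHB. LDHB had 12.98, 13.35 and 13.11 in blastocysts of SE donors, against 13.28 and 13.37 in those of HE donors. PGK1 had 11.30, 11.77 and 11.46 in blastocysts of SE donors, against 11.60 and 11.82 in those of HE donors. Neither gene separated the donor groups. PGAM1 had 9.35, 9.48 and 8.83 in blastocysts of SE donors, against 9.43 and 9.40 in those of HE donors. ALDOC was readable in blastocysts, with 4.10, 5.34 and 5.30 for SE donors, against 5.30 and 5.45 for HE donors, and its difference of -0.46 had an interval of -1.65 to 0.73 and was -0.052 without SE replicate 1. The dim LDHA probe set stood near the filter level, with 4.17, 5.59 and 4.17 for SE donors, against 4.43 and 4.16 for HE donors.

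TPI1 was the 1 probe set not tested in blastocysts. It had 3.00, 2.90 and 2.48 in blastocysts of SE donors, against 2.90 and 2.90 in those of HE donors, all below the filter level, although every cell that runs glycolysis needs triose phosphate isomerase. In endometrium the same probe set was between 11.74 and 12.55 on all 11 arrays. The GAPDH control, 3' minus 5', was 5.47 to 5.85 in blastocysts of SE donors and 4.97 to 5.11 in those of HE donors, and where the TPI1 probes lie along the transcript was not analysed here. The cyclophilin, actin and EIF4E controls overlapped between the donor groups. The part of these controls in the TPI1 signal was not tested. Blastocyst arrays of the same group also shared exact values more often than endometrium arrays did, for 5.08 to 7.63% of kept probe sets in a pair of arrays, against 0.253 to 0.529% in endometrium. TPI1 and the middle LDHA probe set were among the probe sets with the same value in both HE arrays, so their SD of 0 there is no measure of biological spread. Exact values were also shared across donor groups. SE and HE replicate 1 both had 11.31 for GPI and 12.23 for ALDOA. The part of such shared values in the narrow intervals of GPI and ALDOA was not tested.

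**Figure D4:**
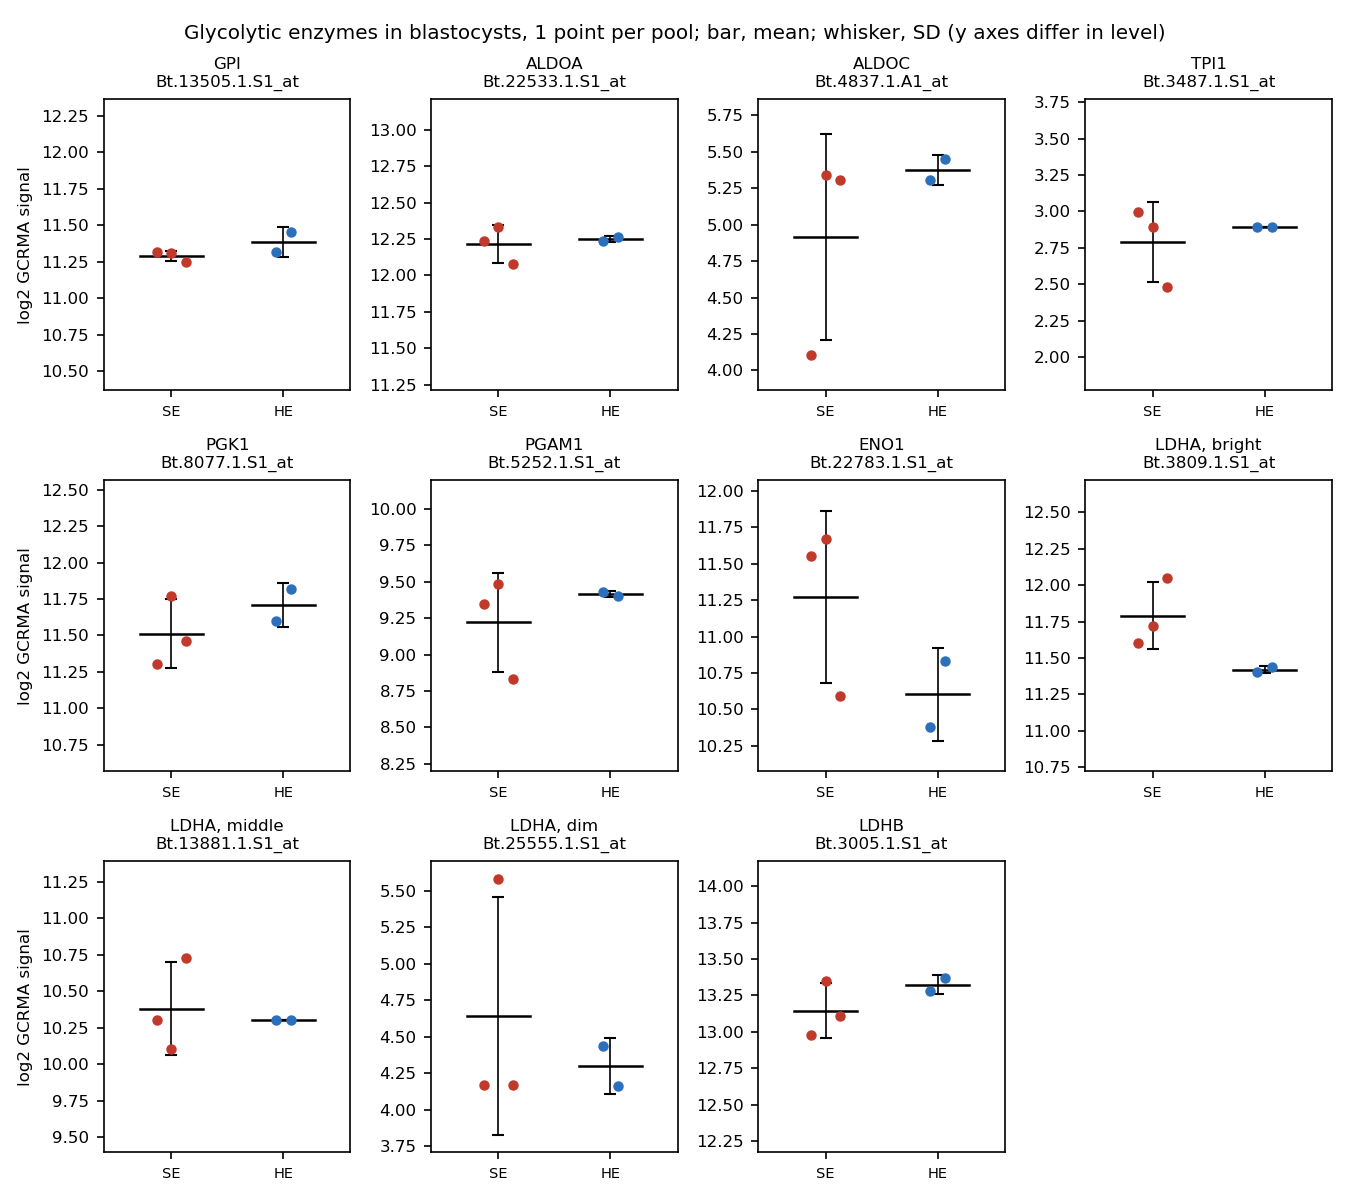
Log2 signal (y axes, which differ in level and span at least 2 units) of the 11 glycolytic probe sets in blastocysts of SE and HE donors, with 1 point per pool, a bar at the mean and whiskers of 1 SD. The bright LDHA probe set gives the panel in which all 3 SE pools lie above both HE pools, and TPI1 lies at 3.00 or below throughout.

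**Figure D5:**
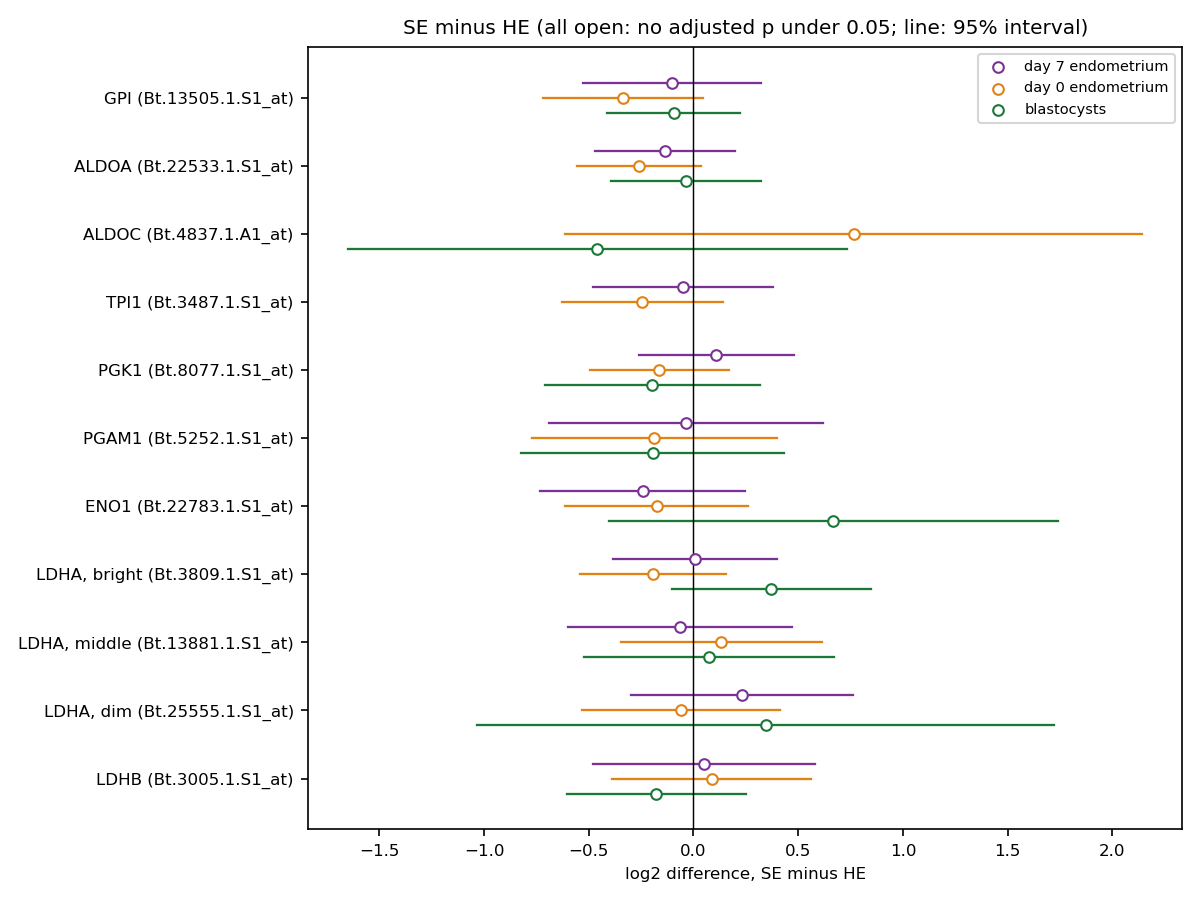
Difference between SE and HE (x axis, log2 difference, SE minus HE) for each glycolytic probe set in day 7 endometrium, day 0 endometrium and blastocysts, with 95% intervals. ALDOC on day 7 and TPI1 in blastocysts, below the filter level in both groups, are not drawn. Every interval drawn includes 0, and those of ALDOC, of ENO1 in blastocysts and of the dim LDHA probe set in blastocysts are the widest.

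In blastocysts, limma called 0 genes on each of the 7 other lists. At an unadjusted p under 0.05 were 2 of 5 other glycolytic enzymes, 0 of 5 transport genes, 1 of 11 regulators and 0 of 3 gluconeogenesis genes. So were 1 of 6 pentose phosphate genes, 2 of 5 genes of glycogen and fructose metabolism and 0 of 14 hypoxia response genes. Over all kept probe sets in blastocysts 9.34% had an unadjusted p under 0.05, and the counts are descriptions beside that share. The 2 other glycolytic enzymes were PKM, with a difference of 0.64 (limma adjusted p = 0.425), and GAPDH, with a difference of -0.54 (limma adjusted p = 0.525). They point in opposite directions, and neither passed the test.

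The genes whose signal was most like the mean standardised profile of the 9 enzyme genes over the 11 endometrium arrays were EIF4B, RABEPK, TRMT6, ZSCAN16 and INTS14, with Pearson correlations of 0.93, 0.90, 0.90, 0.90 and 0.90. The profile mixes enzymes that were higher and lower on day 7, and the 11 arrays fall into 2 days, so these values describe likeness on these arrays and carry no p.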

How the data were processed

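The authors deposited log2 signals per probe set. The submitters' processing notes name GCRMA, a method that corrects background, normalizes by quantiles and summarises probe sets, and limma, with no role or version given. RNA was amplified in 2 rounds from 15 ng, per the labels' protocols. The sources used here do not say whether endometrium and blastocyst arrays were normalized together.

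Of 24128 probe sets, 112 controls were left out of the tests. Symbols came from the platform annotation supplied with the series, and the gene numbers of all 11 probe sets were found in a RefSeq table. The filter kept 13421 probe sets in endometrium and 11014 in blastocysts. Group means were fitted with limma 3.58.1 in R 4.3.3 (empirical Bayes without trend) over the 11 endometrium arrays, and apart from these over the 5 blastocyst arrays. Tests were two-sided and with Benjamini-Hochberg adjustment across every probe set kept, with a threshold of 0.05, and the code was tested on simulated data. Python 3.11.15, pandas 2.3.3, scipy 1.17.1 and matplotlib 3.10.9 served for tables and plots. The number of arrays limits the precision.

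The genes and lists were chosen with earlier results of these data known. A list gene is represented by its kept probe set of highest mean, and by rule at most 4 called probe sets per list and contrast are named; GAPDH, HK1, SLC2A1 and 6 regulators were named after their values had been seen. Bounds set a group below the filter level at a log2 signal of 4. Replicate numbers were not used to pair arrays in the main fit. Among 12 same-numbered pairs, deviations correlated above 0.1 in 3, from -0.27 to 0.24. With so few pools in a group, these correlations cannot exclude that day 0 and day 7 pools shared cows. Alternatives were no filter, a filter above 5, array weights, quantile normalization, a variance trend, the groups compared alone, gene means, the replicate block and each array left out.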

Additional observations from a re-analysis of the deposited data

How the results depend on the processing

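The counts of glycolytic probe sets called were within 1.5 times of those reported under every alternative run, except that 2 instead of 4 were called higher between days in HE without day 7 HE replicate 1; with each array left out that count ran from 2 to 4. A replicate block kept the counts of 4 higher and 3 lower in each status and changed no call among the 11 probe sets. The following signs turned, and the causes were not tested. With 1 array left out, the SE minus HE difference on day 0 ran from -0.37 to 0.061 for PGAM1, -0.23 to 0.089 for dim LDHA and -0.057 to 0.32 for LDHB. On day 7 it ran from -0.25 to 0.048 for GPI, -0.082 to 0.076 for ALDOC, -0.15 to 0.055 for TPI1, -0.26 to 0.18 for PGAM1, -0.12 to 0.13 for bright LDHA, -0.20 to 0.18 for middle LDHA, -0.046 to 0.51 for dim LDHA and -0.18 to 0.28 for LDHB. The SE day difference ran from -0.074 to 0.013 for PGK1, -0.40 to 0.034 for PGAM1 and -0.11 to 0.27 for middle LDHA. The interaction ran from -0.096 to 0.37 for PGAM1, -0.25 to 0.12 for ENO1, -0.33 to 0.047 for middle LDHA and -0.27 to 0.19 for LDHB. In blastocysts the difference ran from -0.095 to 0.034 for ALDOA, -0.10 to 0.21 for middle LDHA and -0.13 to 0.58 for dim LDHA. Array weights gave 0.024 for dim LDHA (SE minus HE, day 0). Quantile normalization gave -0.013 for bright LDHA (SE minus HE, day 7) and -0.019 for middle LDHA (SE days). The replicate block gave -0.018 for LDHB (SE minus HE, day 7), and in blastocysts 0.034 for ALDOA and -0.10 for middle LDHA. Averaging probe sets gave -0.091 for LDHA between days in HE. With 2 or 3 pools a group, status differences inside the reported intervals remain possible. The intervals are not a limit of detection.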
